A study of Mus musculus with 8 samples.

Results

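The complement system is a set of plasma proteins, cell-surface regulators and receptors, and 33 of its genes were followed here across 4 mouse organs. The genes were taken by symbol, and 33 of 33 were found among the 52195 genes of the deposited expression table. Each is given by its step in the cascade, from the proteins that start it to the receptors that read its products. Bulk RNA sequencing was done on polyadenylated RNA of liver, lung, kidney and small intestine, as 8 libraries, 2 for each organ. The mice were untreated males of the inbred strain C57BL/6 (C57BL/6J in the study's methods), 6 to 10 weeks old, and no group carried a transgene or an agent. By the methods every mouse gave all 4 tissues, and both libraries of a tissue came from separate mice. Which libraries of different tissues share a mouse is not given.

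As background, complement can be started by C1 bound to antibody, by lectins that recognise sugars on microbes, or by the slow spontaneous turnover of C3. These routes meet where C3 is cut, and the larger fragment then leads to the cutting of C5 and to the assembly of C6, C7, C8 and C9 into a pore in the target membrane. Hepatocytes are known as the main source of most of the plasma components, whereas C1q is made by macrophages and related cells, C7 largely outside the liver, factor D by fat cells, and properdin by white blood cells. Regulators in plasma and on cell surfaces keep the cascade off the body's own cells.

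Levels are given as FPKM, fragments scaled by exon length and by library size, which can be compared between genes. The reads behind them, worked out from the spacing of low values, numbered between 9164187 and 21444675 per library. For a gene with 1 kb of exons, 3 reads correspond to an FPKM between 0.140 and 0.327, and lower values cannot be separated from 0 (counting error only). The summed levels of hepatocyte, kidney tubule, alveolar type 2 and enterocyte markers were highest in both libraries of their own organ, while 5 pancreatic acinar markers together reached 1541 and 736 FPKM in small intestine, against at most 76.7 elsewhere. Differences are on the scale of log2(FPKM + 1), which understates those of low genes, and come from limma fitted to the 16328 genes that reached 1 FPKM in 2 or more libraries. Calls needed a difference over 1 in either direction and, after Benjamini-Hochberg adjustment, a p under 0.05. Over all genes tested, the median log2 difference against the other tissues was -0.72 in liver and 0.82 in lung. Median-of-ratios scaling of the same values brought these medians to -0.10 and -0.09, and part of the calls below changed with it.

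Of the 33 complement genes, 32 passed the filter on low values. Cd46, whose product limits C3 and C4 deposits on cells, did not, with an FPKM between 0.0912 and 0.720 in the 8 libraries. In liver 19 of 32 genes were called higher than the mean of the other 3 tissues, against 6.56% of all genes tested, and 5 were called lower, against 32.7%. Their median log2 difference there was 3.12, where the median of all genes was -0.72. In lung 17 were called higher, against a background of 40.7%, and 9 lower, against 8.26%, with a median of 1.21 beside 0.82 for all genes. The kidney had 0 genes called higher, against 8.65%, and 23 lower, against 16.1%. Of the members, Cfb and Cd59a were the 2 on the higher side in kidney with an adjusted p under 0.05 from limma, both short of the difference needed. With limma-voom on the recovered reads 2 members were called higher in kidney, beside 12.55% of all genes, and these need not be the same genes. The small intestine had 1 gene called higher, Cfd, against 13.7%, and 19 lower, against 11.3%. These 4 comparisons share their libraries and are not independent, because a high level in a tissue lowers the differences of the others. A gene can still be called higher in both liver and lung, as Hc was. After median-of-ratios scaling the counts were 24 higher and 2 lower in liver, beside 13.4% and 14.7% of the 15542 genes then tested, and 9 higher and 12 lower in lung, beside 15.1% and 16.9%. In kidney they were 1 higher and 21 lower (12.3% and 12.7%), and in small intestine 1 higher and 20 lower (13.7% and 12.2%). Fewer genes were called lower in liver without either lung library, and fewer lower in lung without either liver library. Without either intestinal library Cfd was not called. In bulk tissue, fewer cells of a type and less RNA per cell cannot be told apart.

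**Figure D1:**
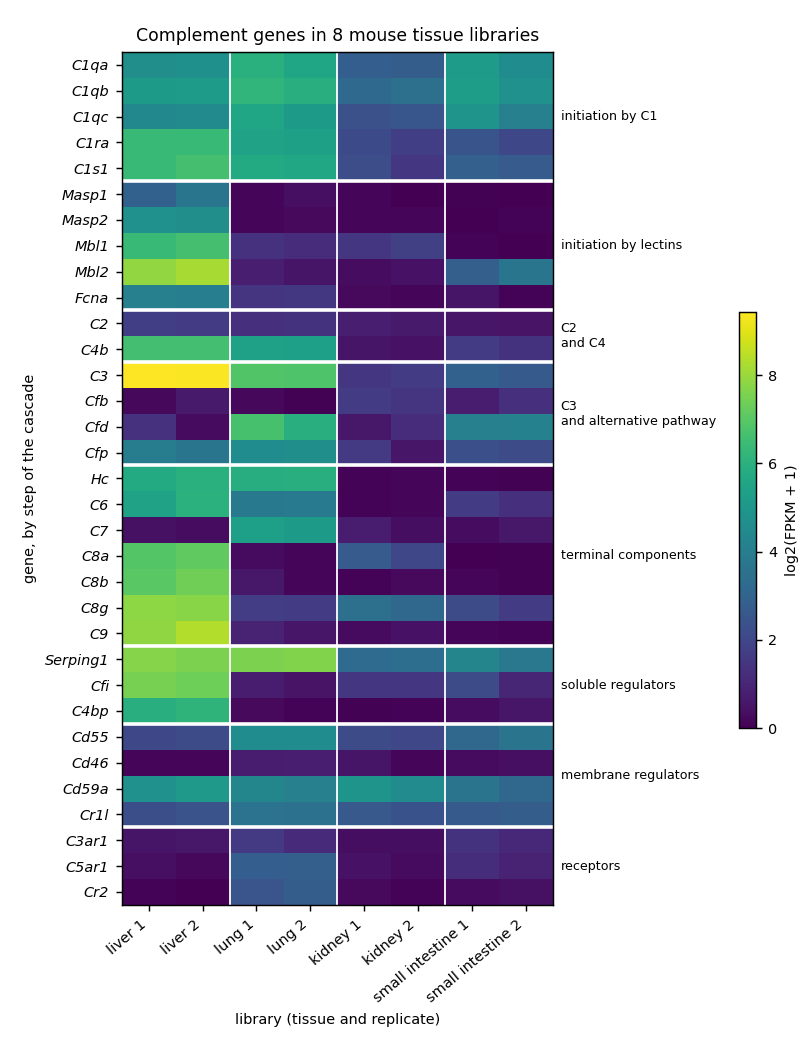
Level of each of the 33 complement genes (rows, grouped by step of the cascade) in each of the 8 libraries (columns, 2 per tissue), as log2(FPKM + 1) on the colour scale. C3 is brightest in both liver libraries, most terminal components and lectin genes are bright in liver alone, and C7, Cfd, Cd55, C5ar1 and Cr2 are brightest in lung.

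C1, the complex that starts the classical route, consists of the recognition protein C1q and the proteases C1r and C1s, and its genes fell into separate patterns. The C1q chains are encoded by C1qa, C1qb and C1qc, which lie together on chromosome 4 of GRCm38 with gaps of 3617 and 2852 bases. C1qa was at an FPKM of 24.2 and 25.9 in liver, 61.7 and 45.2 in lung, 6.14 and 5.83 in kidney, and 36.5 and 22.9 in small intestine. C1qb was at 34.7 and 35.9 in liver, 73.2 and 59.3 in lung, 8.40 and 10.2 in kidney, and 38.4 and 26.2 in small intestine. The 3 genes moved together, since C1qc was at 19.9 and 21.9 in liver, 46.7 and 34.1 in lung, 4.11 and 4.70 in kidney, and 28.2 and 16.5 in small intestine. For each of them both lung libraries were above the other 6 and both kidney libraries were below. Kidney was lower than the other tissues by a log2 difference of -2.31 for C1qa (standard error 0.20, limma adjusted p = 5.78e-05), -2.07 for C1qb and -2.34 for C1qc, and these calls held after median-of-ratios scaling. The excess in lung, with log2 differences of 1.61, 1.54 and 1.56 in the same order, did not hold. After that scaling they were 0.47, 0.38 and 0.42, none of them called, and liver was the highest tissue for all 3 genes.

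Macrophage markers moved with C1q. The 6 listed markers summed to an FPKM of 5357 and 4913 in lung, mostly Lyz2, against 82.2 and 75.9 in liver, 27.1 and 28.0 in kidney, and 131 and 97.3 in small intestine. The alveolar macrophage markers summed to 490 and 412 in lung and at most 9.46 elsewhere. The 5 Kupffer cell markers summed to 96.2 and 96.9 in liver, 9.24 and 3.99 in lung and at most 1.07 in the other 4 libraries. Clec4f and Vsig4 were at most 0.108 outside liver, whereas Timd4 was at 1.89 and 1.78 in lung against 3.16 and 2.94 in liver, and Marco at 6.60 and 1.59 against 1.64 and 1.81. A ratio of genes within a library needs no scaling between libraries. Relative to Csf1r, the receptor for the growth factor of macrophages, C1qa stood at 2.97 and 3.07 in liver, 2.71 and 1.67 in lung, 0.953 and 1.33 in kidney, and 3.48 and 3.07 in small intestine. The order depended on the marker chosen. Relative to Adgre1, a surface protein of macrophages, C1qa was at 4.59 and 5.67 in liver, 5.62 and 5.71 in lung, 3.89 and 8.40 in kidney, and 12.2 and 9.36 in small intestine. Relative to Mrc1, a mannose receptor, the kidney ratios of 13.5 and 23.0 were above the 4.46 to 5.98 of liver and lung, with small intestine at 31.1 and 20.2. Relative to Cd68 lung was lowest, at 1.49 and 1.28, against 3.60 and 3.63 in kidney. Liver was then at 3.25 and 5.015 and small intestine at 3.04 and 3.30. Kidney was thus the lowest tissue by its mean for Csf1r but not for these other markers. The part of the number of macrophages in the levels of C1q was not tested.

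**Figure D2:**
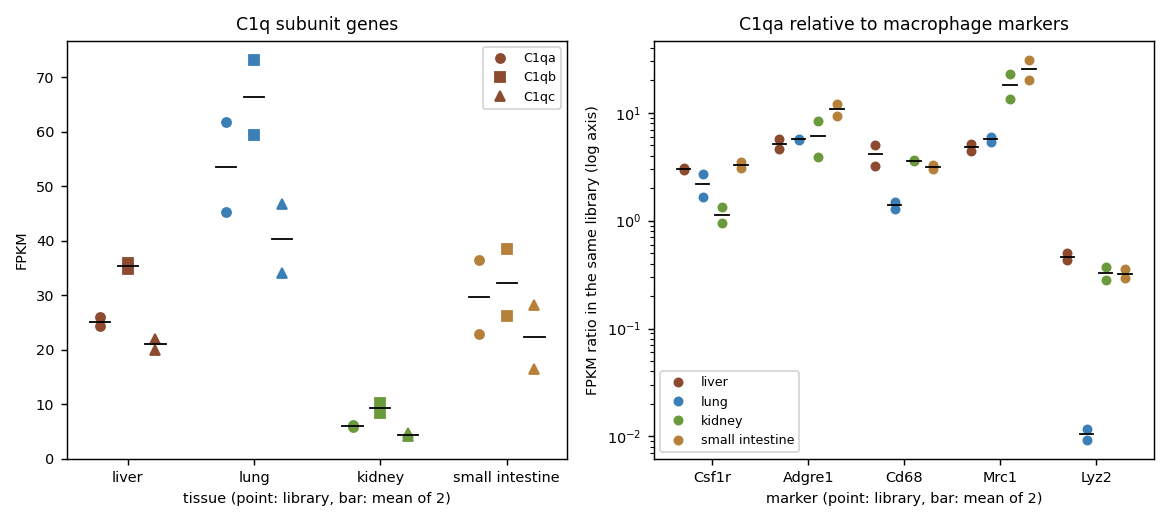
FPKM of C1qa, C1qb and C1qc by tissue (left), and the ratio of C1qa to 5 macrophage markers in the same library (right, log axis, coloured by tissue), with a point per library and a bar at the mean of 2. Lung is highest on the left, with C1qb at 73.2 and 59.3, whereas on the right the order of the tissues changes with the marker, and kidney is lowest for Csf1r but not for the others. Cx3cr1, the remaining listed marker, was at 0 in a liver library and is not drawn.

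The C1 proteases had another order. C1ra, which encodes a C1r that cuts C1s, was at an FPKM of 82.0 and 80.5 in liver, 41.8 and 39.7 in lung, 3.36 and 2.35 in kidney, and 4.51 and 3.17 in small intestine. C1s1, the C1s that cuts C4 and C2, was at 84.2 and 98.8 in liver, 52.9 and 48.7 in lung, 3.70 and 1.81 in kidney, and 6.38 and 5.47 in small intestine. Liver led and lung followed at 50.2% and 55.5% of the liver mean, with no overlap between any of these libraries and those of kidney and intestine. The liver minus lung log2 difference was 0.98 for C1ra (adjusted p = 0.00213) and 0.83 for C1s1 (adjusted p = 0.0140), short of the threshold of 1, and became 2.60 and 2.46 after median-of-ratios scaling. The ratio of C1ra to C1s1 lay between 0.579 and 1.30 in all 8 libraries although both levels differed widely between organs. Reads of near copies limit these values, because 56.9% of the 31-base stretches of C1ra are also in C1rb and 33.5% of those of C1s1 are in C1s2.

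The lectin route had its highest levels in liver, with 5 of 5 genes called higher there, beside 6.56% of all genes, and a median log2 difference of 4.60. Mbl2, the mannose-binding lectin C, was at an FPKM of 240.5 and 297 in liver, 0.744 and 0.439 in lung, 0.254 and 0.367 in kidney, and 6.21 and 11.9 in small intestine. Mbl1, the mannose-binding lectin A, was at 80.2 and 98.7 in liver, 1.57 and 1.28 in lung, 1.81 and 2.46 in kidney, and 0.0680 and 0 in small intestine. The second tissue of Mbl2 was the intestine, at 3.36% of the liver mean. Mbl1 followed liver at 2.39% in kidney and 1.59% in lung, which were not told apart (log2 difference 0.37, adjusted p = 0.122). The intestinal Mbl2 value rests on 63 and 146 reads and was above that of lung by a log2 difference of 2.60 (limma adjusted p = 0.000121) and above that of kidney by 2.88 (adjusted p = 0.000106). No 31-base stretch of Mbl1 is in Mbl2.

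Fcna encodes ficolin A, a lectin of macrophages and other phagocytes, and was at an FPKM of 16.3 and 15.3 in liver, 1.71 and 1.87 in lung, 0.170 and 0.0841 in kidney, and 0.467 and 0.0643 in small intestine. Its lung level was 11.4% of that of liver, the largest share outside liver among these 5 genes. Masp2, the protease of the lectins that cuts C4 and C2, was at 26.7 and 24.3 in liver and between 0 and 0.170 in the other 6 libraries, at most 7 reads each. Masp1, the protease that activates it, was lower, at 6.58 and 11.9 in liver and between 0 and 0.322 elsewhere. The liver libraries of these genes did not overlap with any other, with log2 differences against the other tissues of 3.41 for Fcna, 4.60 for Masp2 and 3.17 for Masp1 (adjusted p = 2.11e-06, 1.17e-07 and 9.34e-06 from the same fit). For Masp2, 54.9% of the exon length overlaps a gene on the other strand, and whether the counting used strand is not given.

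C4b and C3, the thioester proteins that attach to targets, were high in liver and also stood well above the floor in lung. C4b was at an FPKM of 96.2 and 96.5 in liver, 40.9 and 39.5 in lung, 0.434 and 0.386 in kidney, and 2.08 and 1.63 in small intestine. C3, the protein on which all routes meet, was the highest of the 33 genes in liver, at 692 and 669 in liver, 116 and 115 in lung, 1.79 and 2.15 in kidney, and 6.54 and 5.34 in small intestine. As deposited each tissue stood apart from the next for C3, with liver above lung by a log2 difference of 2.55 (standard error 0.14, limma adjusted p = 3.2e-06), lung above small intestine by 4.07 and small intestine above kidney by 1.22. After median-of-ratios scaling kidney minus small intestine was -0.98, no longer called. The lung mean was 16.9% of the liver mean for C3 and 41.7% for C4b, and both genes were called above the mean of the other organs in lung under either scaling, although below liver. After median-of-ratios scaling liver was 18.7-fold above lung for C3 and 7.57-fold for C4b, against 5.90-fold and 2.40-fold as deposited. The kidney was the lowest tissue for both, at 0.289% and 0.425% of liver. Of the 31-base stretches of C4b, 48.3% are also in C4a, whose own level was at most 3.23.

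C2, which supplies the catalytic part of the classical C3 convertase, and Cfb, its counterpart in the alternative route, are neighbours on chromosome 17 with a gap of 86 bases. C2 was at an FPKM of 2.34 and 2.23 in liver, 1.43 and 1.60 in lung, 0.711 and 0.612 in kidney, and 0.469 and 0.410 in small intestine. Cfb was at 0.154 and 0.617 in liver, 0.145 and 0.0285 in lung, 2.13 and 1.66 in kidney, and 0.681 and 1.44 in small intestine. It was the only member highest in kidney, by a log2 difference of 0.999 that lay just under the threshold (adjusted p = 0.00283) and by 1.10, called, after median-of-ratios scaling, and kidney was not told apart from small intestine (0.51, adjusted p = 0.107). Both genes share exon sequence on the same strand with Gm20547, over 79.5% of the exon length of Cfb and 42.8% of that of C2, and Gm20547 was listed at 0 in 8 of 8 libraries. The levels of both genes are therefore uncertain.

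The other alternative-route genes were highest in lung as deposited. Cfd, which encodes factor D, the protease that cuts factor B, was at an FPKM of 1.54 and 0.210 in liver, 103 and 59.0 in lung, 0.506 and 1.32 in kidney, and 16.4 and 16.6 in small intestine. Lung was above the other tissues by a log2 difference of 4.36 (limma adjusted p = 1.36e-05), small intestine by 1.46 (adjusted p = 0.00746), and both calls held after median-of-ratios scaling, at 3.35 and 1.49. Lung against small intestine was 2.17 (adjusted p = 0.00232) as deposited and 1.40, no longer called, after that scaling. The 5 adipocyte markers summed to an FPKM of 27.4 and 18.0 in lung, 37.7 and 53.6 in small intestine and at most 2.53 in the other 4 libraries, so the list was high in the same organs but higher in intestine, where Cidec made up most of it. Adipoq alone was at 8.90 and 5.19 in lung, 4.18 and 2.43 in small intestine and at most 0.418 elsewhere. The Cfd to Adipoq ratio was 11.6 and 11.4 in lung and 3.94 and 6.82 in small intestine, and the part of fat in the result was not tested.

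Cfp encodes properdin, which stabilises the alternative convertase, and was at an FPKM of 14.5 and 11.7 in liver, 23.2 and 24.8 in lung, 2.02 and 0.499 in kidney, and 3.88 and 3.61 in small intestine. Lung and liver were each called higher than the other tissues and did not overlap with kidney or small intestine. Lung was above liver by a log2 difference of 0.84 (adjusted p = 0.0355) as deposited, and liver above lung by 0.73 after median-of-ratios scaling, neither of them called.

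Most terminal components were called higher in liver. Of the 7 genes that follow C3, 6 were called higher in liver, namely Hc, C6, C8a, C8b, C8g and C9, beside 6.56% of all genes, and C7 was called lower there, beside 32.7%. In lung 3 were called higher, Hc, C6 and C7, a share near the 40.7% of all genes, and 4 lower, beside 8.26%. The C6 call in lung was lost after median-of-ratios scaling (0.34). C9, the subunit that polymerises into the pore, was at an FPKM of 235 and 328 in liver, 0.881 and 0.472 in lung, 0.219 and 0.384 in kidney, and 0.125 and 0.0691 in small intestine, the largest log2 difference of all members at 7.71 (standard error 0.18, limma adjusted p = 7.79e-08). C8b, the β chain of C8, was at 129 and 165 in liver and between 0.0347 and 0.523 in the other 6 libraries. For both genes the liver libraries lay far above the other 6.

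Hc, which encodes C5, was high in both liver and lung. Hc was at an FPKM of 54.0 and 63.0 in liver, 58.4 and 60.0 in lung, 0.0670 and 0.101 in kidney, and 0.0682 and 0.0423 in small intestine. Its lung libraries lay between those of liver, with a liver minus lung log2 difference of -0.02 (95% interval -0.38 to 0.34, limma adjusted p = 0.910). After median-of-ratios scaling the difference was 1.61 (adjusted p = 3.93e-05), with liver higher. Within a library, the ratio of Hc to C3 was 0.505 and 0.523 in lung against 0.0780 and 0.0942 in liver, so C5 transcripts stood higher in lung relative to those of C3 under any scaling between libraries.

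C6 and C7, related proteins that bind in turn after C5b, are encoded on chromosome 15 with a gap of 173795 bases, and liver and lung changed places between them. C6 was at an FPKM of 42.5 and 63.8 in liver, 13.1 and 13.3 in lung, 0.0656 and 0.114 in kidney, and 2.22 and 1.44 in small intestine. C7 was at 0.326 and 0.253 in liver, 39.4 and 34.8 in lung, 0.662 and 0.259 in kidney, and 0.239 and 0.528 in small intestine. Liver exceeded lung for C6 by a log2 difference of 1.90 (adjusted p = 0.000159), and lung exceeded liver for C7 by 4.88 (adjusted p = 9e-07). The lung mean of C7 was 80.5-fold that of kidney, the next tissue (39.9-fold after scaling), and was called higher under either scaling (4.79 as deposited, 3.86 after median-of-ratios). The ratio of C7 to C6 was 3.01 and 2.61 in lung and 0.00768 and 0.00397 in liver. Fibroblast markers summed to 238 and 208 in lung and at most 41.8 elsewhere, and mesothelial markers to 106 and 76.5 against at most 7.28. Both sums were thus highest in lung, as C7 was. Among the mesothelial markers Wt1 was highest in kidney, at 1.43 and 0.550 against 0.512 and 0.273 in lung. The ratio of C7 to Col1a1, a fibroblast marker, was 1.15 and 1.20 in lung and 0.545 and 0.300 in kidney. It was 0.0494 and 0.129 in small intestine and 0.436 and 0.110 in liver. The part of these cells in the result was not tested.

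**Figure D3:**
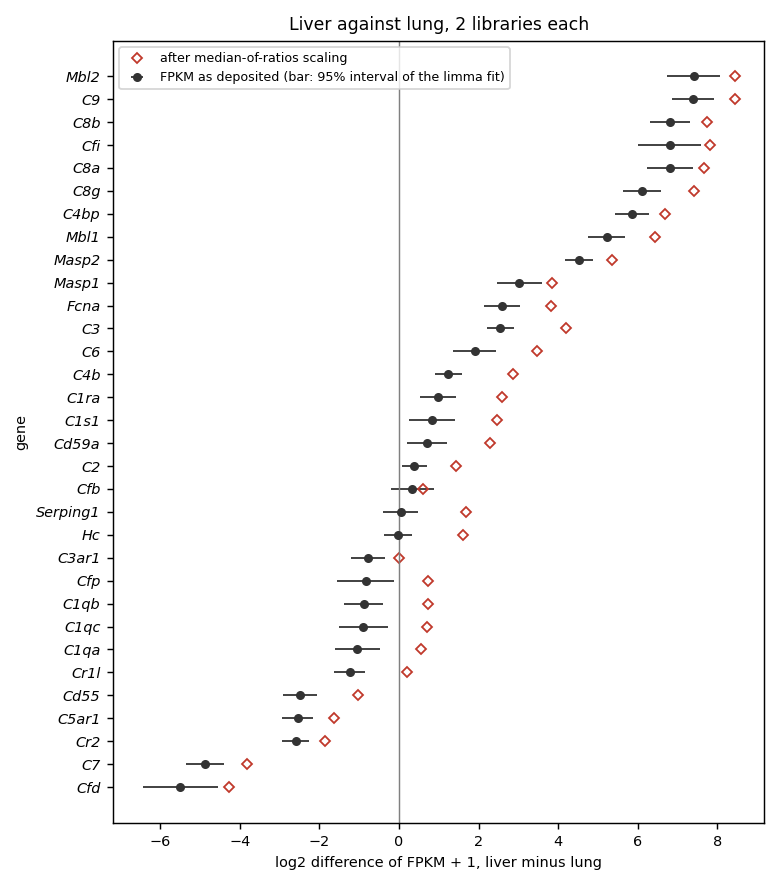
Liver minus lung log2 difference of FPKM + 1 for the 32 complement genes tested (2 libraries each), as deposited (filled points with the 95% interval of the limma fit) and after median-of-ratios scaling (open diamonds). Hc and Serping1 lie at -0.02 and 0.05 as deposited and at 1.61 and 1.69 after scaling, while C7, Cfd, Cr2, C5ar1 and Cd55 stay on the lung side and Mbl2, C9, C8b, Cfi and C8a on the liver side under both.

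The C8 genes showed a kidney signal that did not include all chains. C8a, the α chain, was at an FPKM of 119 and 140 in liver, 0.225 and 0.111 in lung, 5.53 and 3.02 in kidney, and 0 and 0.0486 in small intestine. C8g, the lipocalin-like γ chain, was at 226 and 214 in liver, 2.26 and 2.16 in lung, 10.1 and 7.97 in kidney, and 3.43 and 2.13 in small intestine. Both kidney libraries exceeded those of lung and intestine for both genes, and rested on 431 and 190 reads for C8a and 322 and 206 for C8g. Kidney was above lung by a log2 difference of 2.13 for C8a (limma adjusted p = 0.000157) and 1.63 for C8g (adjusted p = 0.00023), and above small intestine by 2.32 and 1.42 (adjusted p = 0.00017 and 0.000834). C8b in kidney was at 0.0550 and 0.182, at most 8 reads, so the ratio of C8a to C8b was 101 and 16.6 in kidney against 0.924 and 0.852 in liver. C8a and C8b lie on opposite strands of chromosome 4 with a gap of 11131 bases.

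Several upstream stretches were read for the liver genes, because factors known for hepatocyte expression, such as HNF1 and C/EBP, bind short motifs near start sites. RefSeq gave a window for 26 of the 33 genes, and 250 bases before the start were searched on both strands for 7 motifs that were chosen after the letters had been seen. Further forms of them were looked at as well. The letters GTTAATNAT, the core of the HNF1 motif, were found in 2 of 26 members, Hc and C4bp, and in 0.737% of all 32851 windows. Its first part, GTTAAT, was in 8 of 26 members (C1ra, C4bp, C7, C8a, C8b, Cfp, Cr2 and Hc) and in 6.43% of windows, every match of the longer motif included. The C/EBP form TTGCNNAA was in C1s1, C3 and C9, against 9.56% of windows, and its stricter form TTGCGNAA, which is contained in it, was in C3, against 0.67%. The motifs CAAAGTCCA for HNF4 and TGTTTAC for FOXA were in none of the 26 (0.384% and 3.17% of windows), and GAGGAAGT for PU.1 was in C1qc (2.44%). The 130 bases before the RefSeq start (GRCm38.p6, 5′ to 3′ on the minus strand) are shown for 4 genes called higher in liver, with the match in capitals. In Hc (chr2:35061413-35061542) the capitals read the HNF1 core on the other strand, from -77 to -69. In C4bp (chr1:130661619-130661748) they mark the same core, from -64 to -56. In C8a (chr4:104876399-104876528) they mark GTTAAT, from -107 to -102, and in C3 (chr17:57228137-57228266) the strict C/EBP form, from -45 to -38. A match is a description of the letters and not a bound site.
Hc: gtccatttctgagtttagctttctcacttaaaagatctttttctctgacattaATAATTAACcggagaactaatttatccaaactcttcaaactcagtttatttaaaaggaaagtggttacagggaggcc
C4bp: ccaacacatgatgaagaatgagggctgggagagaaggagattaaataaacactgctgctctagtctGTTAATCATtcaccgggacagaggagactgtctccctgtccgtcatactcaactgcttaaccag
C8a: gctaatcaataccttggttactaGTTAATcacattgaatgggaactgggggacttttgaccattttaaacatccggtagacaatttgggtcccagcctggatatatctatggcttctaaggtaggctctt
C3: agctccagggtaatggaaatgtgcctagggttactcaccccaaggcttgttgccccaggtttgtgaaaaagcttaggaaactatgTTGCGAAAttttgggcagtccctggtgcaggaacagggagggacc

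The soluble regulators were called higher in liver in 3 of 3, beside 6.56% of all genes, and Serping1 was called higher in lung too, where 40.7% of all genes were. Serping1, the inhibitor of C1r, C1s and the lectin proteases, was at an FPKM of 211 and 190 in liver, 188 and 200 in lung, 8.96 and 9.74 in kidney, and 18.5 and 12.6 in small intestine. Its liver and lung libraries overlapped, with a log2 difference of 0.05 (95% interval -0.39 to 0.48, limma adjusted p = 0.838), which became 1.69 after median-of-ratios scaling. The ratio of Serping1 to C1ra, which encodes a target of it, was 4.49 and 5.03 in lung against 2.57 and 2.36 in liver. It was 4.10 and 3.98 in small intestine and 2.67 and 4.15 in kidney, so liver was the lowest tissue. Cfi, the protease that cuts C3b and C4b, was at 178 and 164 in liver, 0.692 and 0.399 in lung, 1.78 and 1.80 in kidney, and 3.46 and 1.03 in small intestine. C4bp, the α chain of the binding protein that serves Cfi as a cofactor on C4b, was at 60.2 and 68.6 in liver, 0.183 and 0.0717 in lung, 0.0346 and 0.0601 in kidney, and 0.254 and 0.499 in small intestine. For Cfi and C4bp both liver libraries lay far above the other 6, with log2 differences of 6.20 and 5.80 (adjusted p = 1.55e-06 and 1.02e-07).

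The membrane regulators were spread over the organs. Cd59a, which blocks the insertion of C9, was at an FPKM of 26.6 and 32.8 in liver, 19.3 and 16.2 in lung, 28.4 and 22.5 in kidney, and 11.3 and 7.85 in small intestine. Its liver and kidney libraries overlapped. Liver was above the other tissues by a log2 difference of 0.83, not called, and by 1.81, called, after median-of-ratios scaling. Cd55, which speeds the decay of C3 convertases, was at 3.15 and 3.51 in liver, 23.2 and 23.4 in lung, 3.60 and 3.02 in kidney, and 8.21 and 11.3 in small intestine. Lung was above small intestine by a log2 difference of 1.19 (limma adjusted p = 0.000974), a call that was lost after median-of-ratios scaling (0.44), and the ratio of Cd59a to Cd55 was 8.46 and 9.33 in liver, 7.89 and 7.43 in kidney, 0.834 and 0.692 in lung, and 1.37 and 0.692 in small intestine. Liver and kidney thus held more Cd59a RNA relative to Cd55 RNA than lung and intestine did, with no overlap of their libraries. The proteins were not measured. Cr1l, which encodes Crry, a rodent regulator of C3 deposits, was at 3.80 and 4.33 in liver, 11.0 and 10.9 in lung, 5.25 and 4.19 in kidney, and 5.44 and 5.87 in small intestine. It was called higher in lung as deposited (1.05, adjusted p = 0.000248) and not after scaling (0.01).

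The receptors were low in every organ, with 2 of 3 called higher in lung, beside 40.7% of all genes. In liver 2 of 3 were called lower as deposited, beside 32.7%, and 0 after median-of-ratios scaling. C5ar1, the receptor for the fragment C5a on phagocytes, was at an FPKM of 0.297 and 0.151 in liver, 6.06 and 6.23 in lung, 0.363 and 0.202 in kidney, and 1.33 and 0.928 in small intestine. Cr2, the receptor for C3d on B cells and follicular dendritic cells, was at 0.0538 and 0 in liver, 4.67 and 5.82 in lung, 0.172 and 0.0570 in kidney, and 0.198 and 0.327 in small intestine. Lung libraries were above all others for both genes, by log2 differences of 2.26 and 2.46 (limma adjusted p = 4.02e-06 and 1.54e-06), and by 1.48 and 1.75 after median-of-ratios scaling, again called. C3ar1, the receptor for C3a, was at 0.456 and 0.540 in liver, 2.02 and 1.20 in lung, 0.282 and 0.268 in kidney, and 1.61 and 1.15 in small intestine, and its lung and intestine libraries overlapped. B cell markers moved with Cr2, with 5 markers summing to 164 and 257 in lung, 19.0 and 16.7 in small intestine and at most 1.26 elsewhere. The 4 follicular dendritic cell markers summed to 355.5 and 290 in liver, almost all of it Clu, 225 and 209 in lung and at most 66.1 elsewhere, while Fcer2a, Mfge8 and Cxcl13 were each highest in both lung libraries. Neutrophil markers summed to 67.1 in lung replicate 1 and 341 in replicate 2, where C5ar1 was at 6.06 and 6.23. The part of these cells in the result was not tested.

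Traces of liver components elsewhere were set beside 6 hepatocyte markers. In lung the markers were at 0.165% to 0.618% of the liver mean, and C8a, C8b, Mbl2, C4bp, C9 and Cfi were at 0.129% to 0.319%. Of these, C8a was below the lowest marker. Masp2, at 0.578%, was within the range of the markers, and the remaining members highest in liver were above it, from 1.0% for C8g to 96.8% for Serping1. In kidney Alb was at 0.0879% of liver, whereas C8a was at 3.29% and C8g at 4.09%, but the hepatocyte markers Ttr and Cyp2e1 were at 1.96% and 20.4% there. In small intestine Alb was at 0.0371% and Mbl2 at 3.36%, with Cps1 at 16.3%. The source of these traces was not tested.

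**Figure D4:**
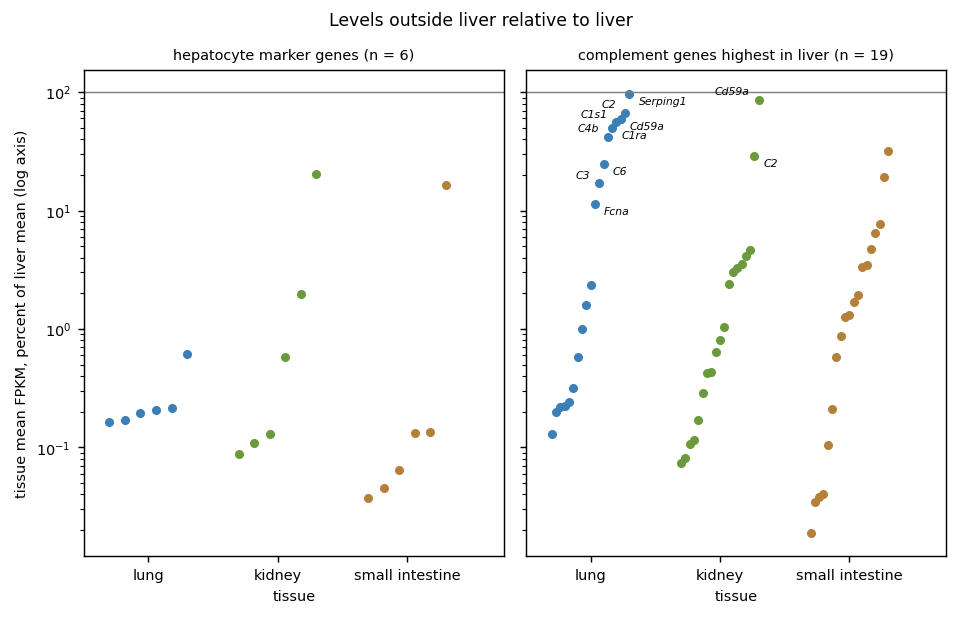
Tissue mean FPKM as a percent of the liver mean (log axis, n = 2 libraries per tissue) for 6 hepatocyte markers (left) and the 19 complement genes highest in liver (right), a point per gene, ordered within each tissue. In lung the markers lie between 0.165% and 0.618%, and C3, C6, C4b, C1ra, C1s1, Cd59a, C2 and Serping1 lie between 16.9% and 96.8%.

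The order of the organs could be told for part of the genes. The highest tissue was called apart from the second for 19 of 32 genes, against 34.5% of all genes tested. Liver was highest for 19 genes and told apart for 14 of them, against 3.74% of all genes tested, and in 10 the liver mean was more than 10-fold above the second tissue. Lung was highest for 12 and told apart for 5, namely Cfd, C7, Cd55, C5ar1 and Cr2, against 21.1%. After median-of-ratios scaling Cfd (1.40, adjusted p = 0.061) and Cd55 (0.44, adjusted p = 0.101) were no longer told apart from small intestine. Kidney was highest for Cfb alone and small intestine for 0, and neither was told apart for any member, against 3.68% and 5.95% of all genes. The highest and second tissue were not told apart for C1qa, C1qb, C1qc, C1ra, C1s1, C2, Cfb, Cfp, Hc, Serping1, Cd59a, Cr1l and C3ar1. After median-of-ratios scaling liver was told apart from lung, the second tissue, for 5 of these, C1ra (2.60), C1s1 (2.46), C2 (1.43), Hc (1.61) and Serping1 (1.69), and C2 was then called higher in liver (1.56, against 0.85 and not called as deposited). Median-of-ratios scaling changed the highest tissue of 7 genes, C1qa, C1qb, C1qc, Cfp, Hc, Cr1l and C3ar1, and left liver highest for 25, lung for 5, kidney for 1 and small intestine for 1.

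Between pairs of organs, liver against lung gave 14 of 32 complement genes higher in liver, against 7.21% of all genes tested, and 7 higher in lung, against 55.5%. After median-of-ratios scaling these were 20 (19.3%) and 5 (20.0%). Liver against kidney gave 22 higher in liver (background 6.90%) and 1, Cfb, higher in kidney (16.2%), which became 23 (11.6%) and 0 (12.1%) after scaling. Liver against small intestine gave 21 (7.89%) and 2 (28.3%), the latter being Cfd and Cd55, and 21 (15.2%) and 1 (16.5%) after scaling. Lung exceeded kidney in 19 (41.4%) and fell below it in 3 (8.87%), which were Cfb, C8a and C8g, and in 16 (17.8%) and 5 (17.9%) after scaling. Lung exceeded small intestine in 16 (30.6%), and Mbl2 was the 1 gene higher in intestine (10.1%), which became 11 (15.5%) and 2 (16.6%) after scaling. Kidney exceeded small intestine in 4, Mbl1, C8a, C8g and Cd59a (10.7%), and was lower in 10 (18.8%), which became 4 (14.5%) and 8 (15.7%) after scaling.

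A further list of 25 complement genes outside the 33 gave 21 that passed the filter. In liver 16 of 21 were called higher and 4 lower, beside 6.56% and 32.7% of all genes tested, and in lung 6 and 6, beside 40.7% and 8.26%. In kidney the counts were 1 and 12 (8.65% and 16.1%), and in small intestine 0 and 16 (13.7% and 11.3%). The lung counts were 4 higher and 10 lower after median-of-ratios scaling, beside 15.1% and 16.9%. The largest log2 differences in liver belonged to Vtn, the vitronectin that caps the unfinished pore, at an FPKM of 845 and 975 in liver and at most 13.9 elsewhere, to Cfhr2 at 369 and 394 against at most 1.22, and to Cpb2, a carboxypeptidase that inactivates C3a and C5a, at 155.5 and 163 against at most 0.630. The differences were 7.92, 7.86 and 6.98. In kidney Vtn, Cfhr2 and Itgb2 were the furthest below the other tissues, by -4.06, -2.82 and -2.31, and Cpn1, the catalytic chain of a carboxypeptidase that acts on the same fragments, was the gene called higher, at 11.4 and 8.35 against 40.6 and 36.9 in liver, 1.0 and 0.655 in lung and 0.550 and 0.359 in small intestine. In small intestine Vtn and Clu were among the genes furthest below, by -3.83 and -3.61. Clu, another inhibitor of the pore, was at 350.2 and 286 in liver, 86.3 and 73.5 in lung, 55.3 and 38.3 in kidney, and 11.3 and 5.17 in small intestine.

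Of these 21 further genes tested, 4 were highest in lung and told apart from the second tissue, beside 21.1% of all genes, and they also had the largest differences in lung. Thbd, the thrombomodulin of endothelial cells, was at an FPKM of 214 and 200.4 in lung and at most 4.63 elsewhere. Cd93, once named as a C1q receptor, was at 60.6 and 55.4 against at most 2.32. Itgb2, the shared chain of complement receptors 3 and 4, was at 33.9 and 35.8 against at most 5.18, and Itgax, the chain particular to receptor 4, at 8.25 and 8.95 against at most 3.96. Lung libraries were above all others for these 4 genes, with log2 differences of 5.98, 4.78, 3.67 and 2.40 (limma adjusted p = 7.56e-07, 1.01e-06, 9.37e-07 and 7.14e-06), all called after median-of-ratios scaling too. Itgax was then no longer told apart from small intestine (0.47, against 1.16 as deposited). Endothelial markers summed to 300 and 355 in lung and at most 25.5 elsewhere, and their part in these results was not tested. Itgam, the partner of Itgb2 in receptor 3, was listed at 0 in 7 of 8 libraries. Most of its exon length is shared with a gene model of GENCODE M21 that is not among the genes of the expression table. Whether that model was used in the counting is not given, so no level is given for Itgam.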

How the data were processed

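RNA of 4 tissues from 8 libraries was analysed. By the study's methods the authors selected reads by index with bbduk, mapped them with STAR 2.5.3a to the Ensembl mouse genome and deposited FPKM, which DESeq2 computed with its fpkm function. The read counter and its use of strand are not given in the sources used here. Tissue and replicate number came from the labels. From FPKM, reads were recovered with GENCODE M21 exon lengths, and 94.5% to 96.1% of values under 50 reads per library were whole within 0.02. Values of log2(FPKM + 1) were fitted with limma 3.58.1 (eBayes with trend, R 4.3.3) over 16328 genes in 1 fit of 8 libraries, with Benjamini-Hochberg adjustment over all genes. The limma step was tested on simulated data. Tables were made with Python 3.11.15, numpy 2.4.6 and pandas 2.3.3, and figures with matplotlib 3.10.9. Values per library are given for genes with a tissue mean of at least 1 FPKM, as ranges where levels were low. Of the further list, the 3 largest differences per tissue and the genes highest outside liver were named. The result of 1 gene of that list is not reported here. Members, lists and named genes were chosen with earlier results of these data known. Alternatives changed the pseudocount, filter, scaling, trend, block, tool and libraries.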

Additional observations from a re-analysis of the deposited data

How the results depend on the processing

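Without any filter, or without a trend, every count of complement genes called in a tissue was unchanged. Median-of-ratios scaling lowered the genes called lower in liver from 5 to 2 and those called higher in lung from 17 to 9, raised those called higher in kidney from 0 to 1, and turned the lung minus liver log2 difference of Hc from 0.02 to -1.61 (adjusted p = 3.93e-05). Quantile normalization gave 2 genes lower in liver (13.1% of all genes), 1 higher in kidney (11.5%) and 0 higher in small intestine (11.8%). A pseudocount of 0.1 gave 2 genes higher in kidney (11.8%) and 3 in small intestine (19.0%), limma-voom on recovered reads also 2 (12.5%) and 3 (19.9%), and leaving out mitochondrial genes 2 in kidney (15.8%). With single libraries left out, fewer complement genes were called lower in liver without either lung library, and fewer lower in lung without either liver library. Cfb passed the threshold in kidney without liver replicate 2, lung replicate 1, kidney replicate 2 or small intestine replicate 2. Cfd was not called higher in small intestine without either of its own libraries. A lone library was then assumed to vary like the others, and the cause of these changes was not tested. The kidney count of 0 was Cfb at its threshold, with an adjusted p of 0.00283.

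Which libraries of different tissues share a mouse is not given, so the replicate numbers were not taken as pairs. Deviations of same-numbered libraries had correlations from -0.217 to 0.0528 over 16328 genes. With 2 libraries a tissue, these values cannot show whether a mouse is shared. With the replicate block in the fit, 19 complement genes were called higher in liver, 17 in lung, 0 in kidney and 1 in small intestine, and the highest tissue was told apart in 19, the same counts as without it. Depth limits genes below about 3 reads.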
